A study of Mus musculus with 6 samples.

Results

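Replication-dependent histone genes were examined in total mRNA libraries of Ba/F3 cells that express the leukemia-associated RPL10 R98S mutation or RPL10 WT. The genes were all those in the expression table whose symbol starts with Hist1h, Hist2h, Hist3h or Hist4h, without pseudogenes marked -ps. This rule selected 69 of 41255 listed genes, and 1 pseudogene was left out. They fell into 5 histone classes, with 6 genes for the linker histone H1, 20 for H2A, 18 for H2B, 12 for H3 and 13 for H4. By cluster, 56 belonged to Hist1, 10 to Hist2, 2 to Hist3 and 1 to Hist4.

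Ba/F3 is a mouse lymphoid cell line that needs interleukin-3 to grow. All 6 cultures had received a retroviral human RPL10 cDNA and a short hairpin RNA against the mouse Rpl10 gene, and each had been grown from a single cell, so each library stands for 1 clone. The cDNA encoded normal RPL10 in clones 28, 29 and 36 (WT) and a protein with an arginine to serine exchange at residue 98 in clones 11, 13 and 35 (R98S). Values per clone are given in this order for each group. All cultures were exposed to cycloheximide at 100 µg/ml for 5 min, which stops translation elongation, before RNA was isolated and polyadenylated RNA was sequenced. The hairpin, the transgene vector and the cycloheximide were thus shared by both groups, and no culture without them was part of the comparison.

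Core histones H2A, H2B, H3 and H4 form the nucleosome, around which DNA is wrapped, and H1 binds the linker DNA where it enters and leaves. Most of their mRNA is made during S phase from clustered genes without introns. These mRNAs are the known exception among animal mRNAs, as they end in a conserved stem-loop instead of a poly(A) tail. The stem-loop is bound by the protein encoded by Slbp, and the mRNA is cut behind it with the help of the U7 small nuclear ribonucleoprotein. Some histone genes also make polyadenylated mRNA, from poly(A) signals further downstream, which has been described in differentiated and growth-arrested cells. A library made from polyadenylated RNA therefore measures only part of the histone mRNA.

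The stem-loop was searched for past the stop codon in the longest coding GENCODE M21 transcript of each of the 69 genes (GRCm38, the same build as mm10). Where no transcript was coding, the longest was used. A match was a fully paired stem of 6 bases that starts with GG and a loop of 4 bases that starts with TTT. The stem-loop was present in 43 of 69 genes (62.3%) and began between 22 and 59 bases after the stop codon. It was found in 24 of 21834 other protein-coding genes (0.11%), where all coding transcripts were searched over their full length. Further transcripts of the histone genes were not searched. The gene models of 15 histone genes ended within 3 bases of the stop codon, where no stem-loop can be seen. No such stem-loop was found in the models of Hist2h2be and Hist1h2bc, which are among the genes with the most reads. The sequences below mark the normal 3′ end of the other genes that the results turn on, and Hist4h4 is added to show a second form among H4 genes. Capitals mark the stem, and the loop and 5 flanking bases on each side are in lower case.
Hist1h1c (chr13:23739507-23739532, plus strand): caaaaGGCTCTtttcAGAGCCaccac
Hist1h1d (chr13:23555782-23555807, plus strand): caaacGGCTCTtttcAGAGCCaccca
Hist1h1e (chr13:23621777-23621802, minus strand): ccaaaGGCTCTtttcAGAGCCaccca
Hist1h2be (chr13:23585526-23585551, minus strand): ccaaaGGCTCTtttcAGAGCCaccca
Hist1h4i (chr13:22040961-22040986, minus strand): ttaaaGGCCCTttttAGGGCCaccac
Hist4h4 (chr6:136803993-136804018, minus strand): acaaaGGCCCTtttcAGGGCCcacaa
The first 4 genes share an identical stem and loop, and the H4 genes Hist1h4i and Hist4h4 share their stem but not their loop. The stem and loop of Hist1h1c was the most common form, in 25 of the 43 genes. In 20 of the 43 genes the model ended within 60 bases of the loop. In Hist1h1c it ran on for 840 bases, in Hist1h2be for 1861 and in Hist1h4i for 330, all of them beyond the place where the mRNA is normally cut.

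Promoters were taken from RefSeq (GRCm38.p6, 250 bases before to 50 after the gene start) and were found for 61 of the 69 genes. Those of Hist1h2bc and Hist2h2be, described below, were not among them, but each of these genes lies head to head with an H2A gene whose window contains both starts. The windows of these H2A genes are shown with those of Hist1h1c and Hist1h4i, the H1 and H4 genes with the most reads. Capitals mark the 3 motifs searched for on both strands, namely TATAAA (the TATA box sequence), the short motif CCAAT and the octamer ATTTGCAT. A match was counted at any position in the window, so a TATAAA need not be a TATA box.
Hist1h1c (chr13:23738557-23738856, plus strand): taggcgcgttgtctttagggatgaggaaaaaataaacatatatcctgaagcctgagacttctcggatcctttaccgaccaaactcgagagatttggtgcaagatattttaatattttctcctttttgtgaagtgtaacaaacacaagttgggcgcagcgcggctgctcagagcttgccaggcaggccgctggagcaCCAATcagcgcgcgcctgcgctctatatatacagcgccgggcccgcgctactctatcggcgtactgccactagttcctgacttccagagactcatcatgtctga
Hist1h4i (chr13:22041313-22041612, minus strand): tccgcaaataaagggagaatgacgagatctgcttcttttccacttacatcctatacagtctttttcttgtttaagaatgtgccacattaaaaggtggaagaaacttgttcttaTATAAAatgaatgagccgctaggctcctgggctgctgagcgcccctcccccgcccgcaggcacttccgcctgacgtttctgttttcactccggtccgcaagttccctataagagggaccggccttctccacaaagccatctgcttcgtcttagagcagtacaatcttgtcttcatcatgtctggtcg
Hist1h2ac (chr13:23683910-23684209, minus strand): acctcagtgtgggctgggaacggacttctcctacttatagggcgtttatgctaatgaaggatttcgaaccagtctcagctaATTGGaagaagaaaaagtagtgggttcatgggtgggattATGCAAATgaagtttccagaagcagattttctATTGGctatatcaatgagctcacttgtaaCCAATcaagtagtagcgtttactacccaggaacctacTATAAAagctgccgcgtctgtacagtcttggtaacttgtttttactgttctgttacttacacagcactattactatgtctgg
Hist2h2ac (chr3:96220831-96221130, minus strand): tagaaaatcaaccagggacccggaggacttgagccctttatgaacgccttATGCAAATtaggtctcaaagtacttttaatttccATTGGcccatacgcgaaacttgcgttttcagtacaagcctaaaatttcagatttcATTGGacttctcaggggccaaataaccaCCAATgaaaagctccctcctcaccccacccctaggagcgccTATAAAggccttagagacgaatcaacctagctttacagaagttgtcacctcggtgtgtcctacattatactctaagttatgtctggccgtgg
CCAAT was present in all 6 promoters of H1, all 17 of H2A, all 16 of H2B and all 10 of H3 genes, in 3 of 12 (25%) of H4 genes, and in 37.3% of 32789 other promoters. TATAAA was present in 40% (H3) to 66.7% (H1 and H4) of the promoters of a class, against 13.5% of the others. The octamer was found in 7 of 17 H2A (41.2%) and 6 of 16 H2B promoters (37.5%), in 0 of the 6 H1, 10 H3 and 12 H4 promoters, and in 1.7% of the others. Windows of head-to-head H2A and H2B genes overlap, so a site can count in both classes. The octamer of Hist1h2ae and Hist1h2bg, for example, is the same site, and the H2A and H2B counts are not independent. A match describes these letters in this window and does not show that a factor binds there.

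Depth was similar in all libraries, with 21786776 to 24204991 reads assigned to genes. Values are read counts divided by a size factor per library (normalized counts), in which 1 read is worth between 0.925 and 1.07. The target of the hairpin, Rpl10, had normalized counts of 2853, 3156 and 1900 in WT and of 3028, 1883 and 2617 in R98S cells, and an unknown share of these reads can stem from the human cDNA. Of the early B lineage markers, Cd79a and Ptprc were present in every library (996 to 1507 and 3366 to 14068 normalized counts), whereas Pax5, Vpreb1, Igll1, Il7r and Cd24a had at most 4.10.

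Reads from histone genes were few and came from a handful of genes. Summed over all 69 genes, normalized counts were 1143, 1001 and 1132 in WT and 3100, 2276 and 2791 in R98S cells. The R98S mean was 2.49 times the WT mean (2722 ± 416 against 1092 ± 79.2, SD, n = 3), and the groups did not overlap. Hist1h1c alone contributed between 41.8% and 61.8% of the sum in a library. Per kilobase of exon, the highest means over the 6 libraries were 634 normalized counts for Hist1h1c, 190.2 for Hist2h2be, 82.0 for Hist1h2bc, 67.6 for Hist1h4i and 36.2 for Hist1h2aa. No read was found in any library for 12 genes, and 34 genes, these included, had at most 3 reads in every library, the number taken as not distinguishable from 0. Among the 12 were the testis genes Hist1h1t and Hist1h2ba, and Hist2h2aa1, Hist2h2aa2, Hist2h3b and Hist2h3c1, of whose sequence not a single stretch of 50 bases was unique to the gene. Hist2h2bb, likewise without a unique stretch, still had 26 reads in all.

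Near-identical copies limit what can be measured in this family. Reads were kept by the authors only when their mapping quality was at least 10, which removes reads that fit several places equally well. The share of a transcript's 50-base stretches found in no other gene had a median of 45% over the 69 genes. A stretch counted as shared on either strand, also with an annotated gene that overlaps at the same place. Hist2h2aa1, Hist2h2aa2, Hist2h3b, Hist2h3c1 and Hist2h2bb all overlap such a gene. The share thus does not separate near-identical copies from overlaps, and reads in an overlap need not fit several places. All 11 genes that passed the expression filter below had at least 50% of their own, and none of the 36 genes under 50% passed. A low value of such a gene therefore does not show that it was silent.

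**Figure D1:**
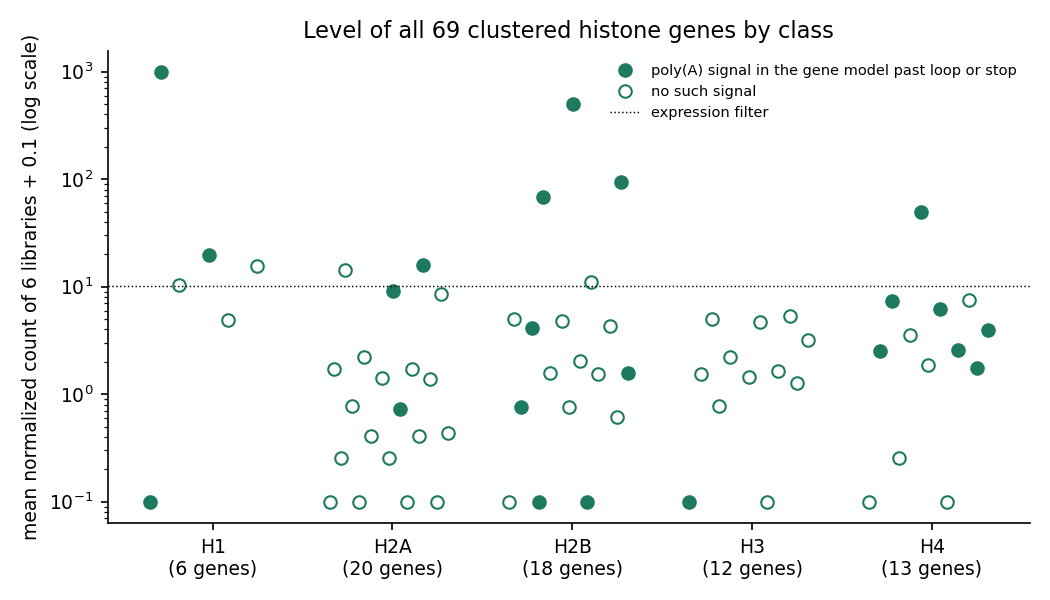
Mean normalized count over the 6 libraries, with 0.1 added so that genes without a read can be drawn (y axis, log scale), of each of the 69 histone genes by class (x axis). Filled points are genes whose model holds a poly(A) signal past the stem-loop or stop codon, open points have no such signal, and the dotted line marks the expression filter of 10. The 5 genes with the highest levels, in classes H1, H2B and H4, are all filled, and no H3 gene reaches the filter.

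R98S and WT clones were compared with limma on log2(normalized count + 1) for all 11550 genes with a mean of at least 10 normalized counts over the 6 libraries, with Benjamini-Hochberg adjustment over all of them and a threshold of 0.1. Of these genes 23.9% were called, 10.7% as higher and 13.1% as lower in R98S cells, and the median log2 fold change was -0.0105. Only 11 of the 69 histone genes passed the filter, and 58 did not. Of all 11550 genes, 5667 had a positive log2 fold change, and so did all 11 of these. The test called 7 of them higher (Hist1h1c, Hist1h1d, Hist1h1e, Hist1h2bc, Hist1h2be, Hist2h2be and Hist1h4i) and 0 lower, and 0 were lower at an unadjusted p under 0.05 in limma, edgeR or DESeq2. Every R98S clone lay above every WT clone in 7 of the 11, against 18.1% of all tested genes. These 7 were not the same as the 7 called, since Hist1h2be overlapped between groups and Hist1h2bg did not. The filter was passed by 4 genes (Hist1h1b, Hist1h1d, Hist1h1e and Hist1h2bg) with a WT mean under 10, which could enter only through their R98S values, so the counts over the 11 describe these genes and no others. Of the 7 genes with a WT mean of at least 10, 5 were called higher. In RNA from whole cultures, a larger share of cells with a transcript and more transcript per cell cannot be told apart.

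**Figure D2:**
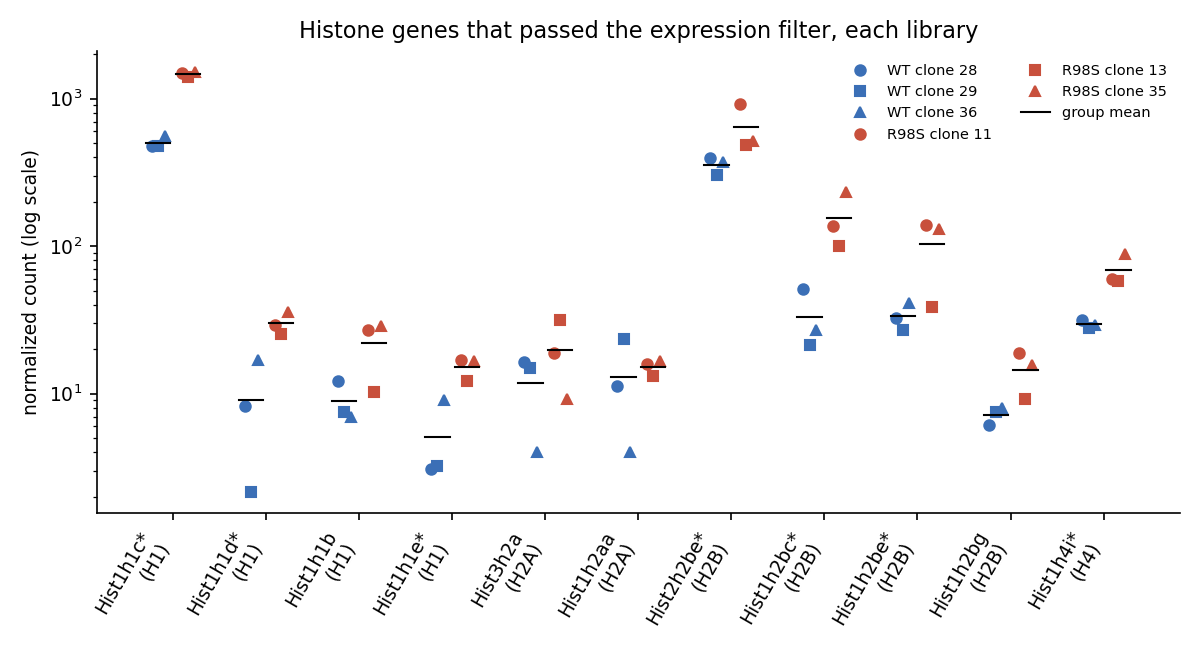
Normalized counts (y axis, log scale) of the 11 histone genes that passed the filter, grouped by class, in each of the 6 clones. Points are libraries, short lines are group means, and an asterisk marks an adjusted p under 0.1. Hist1h1c lies at 1406 to 1522 in the R98S clones and at 478 to 555 in the WT clones, while the groups overlap for Hist1h2be, Hist1h1b, Hist1h2aa and Hist3h2a.

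Linker histone H1 gave the most abundant transcript of the family and the most even difference between clones. Hist1h1c (chr13:23738808-23740367, plus strand, 1 exon) had normalized counts of 478, 479 and 555 in the WT clones, compared with 1490, 1406 and 1522 in the R98S clones. Each R98S clone was thus at 2.79 to 3.02 times the WT mean. On average the transcript rose from 504 ± 44.3 to 1473 ± 59.6 (SD, n = 3). On the log2 scale the difference was 1.55 (SE 0.12, adjusted p = 0.000292). Hist1h1d (chr13:23553262-23560686) had 8.19, 2.15 and 17 in the WT clones and 29.1, 25.5 and 36.1 in the R98S clones, a log2 fold change of 1.94 (SE 0.62, adjusted p = 0.0693). Hist1h1e (chr13:23620629-23622558) had 3.07, 3.22 and 9.01 against 16.9, 12.2 and 16.7, with a log2 fold change of 1.53 (SE 0.50, adjusted p = 0.0741). Both rose without overlap between the groups, from WT values of 2 to 17 reads.

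The calls of Hist1h1d and Hist1h1e depended on single clones. Without WT clone 28, 29, R98S clone 11, 13 or 35, Hist1h1d had an adjusted p of 0.139, 0.138, 0.164, 0.103 and 0.175, and without WT clone 36 it was called (0.0306). Without WT clone 29 its log2 fold change was 1.26. Hist1h1e had an adjusted p of 0.202 without WT clone 28 and 0.196 without WT clone 29, and of 0.212 with DESeq2, and it fell below the expression filter when any R98S clone was left out. Its exons also overlap those of Hist1h2be on the same strand, so reads there cannot be assigned to either gene with certainty. Hist1h1b had 12.3, 7.52 and 7.01 in WT cells against 27.2, 10.2 and 28.7, with R98S clone 13 inside the WT range (log2 fold change 1.12, SE 0.49, adjusted p = 0.16). Without R98S clone 13 its adjusted p was 0.0458 and its log2 fold change 1.58. The other H1 genes were Hist1h1a, which had at most 7.01 normalized counts in any clone, and Hist1h1t, the testis linker histone, without a read.

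Of the 4 H2B genes tested, 3 were called higher in R98S cells, beside 10.7% of all genes. Of these 3, only Hist1h2bc kept its call under every alternative fit. Hist2h2be (chr3:96221119-96223738, plus strand), whose product is the H2B variant known from olfactory neurons, had the second highest level of the family. It had 398, 303 and 372 normalized counts in WT and 914, 487 and 516 in R98S cells. The R98S clones were all higher, but clone 11 lay well above clones 13 and 35. Its mean level rose from 358 ± 49.3 to 639 ± 238, a log2 fold change of 0.78 (SE 0.25, adjusted p = 0.0705). The log2 fold change was 0.49 without R98S clone 11 (adjusted p = 0.138), and the call was also lost without WT clone 28 (0.128), WT clone 29 (0.195) and WT clone 36 (0.111).

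Hist1h2bc (chr13:23684199-23692908, plus strand, 2 exons) had the largest log2 fold change of the 11 genes. Its normalized counts were 51.2, 21.5 and 27.0 in WT and 137, 101 and 231 in R98S cells, without overlap. Its mean level rose 4.71-fold, from 33.2 ± 15.8 to 156 ± 67.3, with a log2 fold change of 2.21 (SE 0.41, adjusted p = 0.0130). Hist1h2be (chr13:23583670-23621124, minus strand, 2 exons in the main model) had 32.8, 26.9 and 41.0 in the WT clones, and 140, 38.8 and 131 in the R98S clones. Here R98S clone 13 lay within the WT range, while clones 11 and 35 were more than 3 times the highest WT clone. The log2 fold change was 1.41 (SE 0.48, adjusted p = 0.0870). The call was lost on leaving out any clone but R98S clone 13, with adjusted p values of 0.184, 0.211 and 0.11 without WT clones 28, 29 or 36, respectively, and of 0.251 and 0.230 without R98S clone 11 or 35. Hist1h2bg, the fourth H2B gene tested, had 6.14, 7.52 and 8.01 against 18.8, 9.19 and 15.7 (log2 fold change 0.87, SE 0.43, adjusted p = 0.199), and passed the threshold only in the fit without an intensity trend (0.0825).

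The H2A genes were at low levels throughout, although they were the largest class. Hist3h2a, a member of the small Hist3 cluster on chromosome 11, had the highest counts among them, although per kilobase of exon its mean was 7.38 normalized counts against 36.2 for Hist1h2aa. It had 16.4, 15 and 4.0 normalized counts in the WT clones and 18.8, 31.6 and 9.25 in the R98S clones (log2 fold change 0.75, SE 0.63, adjusted p = 0.448). Its exons overlap those of Trim17 on the same strand. Hist1h2aa, an H2A gene known from testis, had 11.3, 23.6 and 4.0 against 16.0, 13.3 and 16.7 (log2 fold change 0.50, SE 0.58, adjusted p = 0.592). Neither gene was called, and in both WT clone 36 had the lowest value. Without that clone the log2 fold change was -0.0998 for Hist1h2aa and 0.17 for Hist3h2a. Leaving out other clones, that of Hist1h2aa reached 1.05 (without WT clone 29), and that of Hist3h2a lay between 0.35 (without R98S clone 13) and 1.18 (without R98S clone 35). Below the filter, Hist1h2ae had 2.05, 6.45 and 1.0 in the WT clones and 23.5, 6.12 and 14.8 in the R98S clones, and Hist1h2ag 10.2, 8.6 and 4.0 against 16.0, 1.02 and 11.1. Both overlapped between the groups through R98S clone 13. Of the 20 H2A genes, 13 had at most 3 reads in every library.

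No H3 gene passed the expression filter, so none entered the comparison. The 4 with the highest means, Hist1h3c, Hist1h3d, Hist1h3e and Hist1h3g, had at most 13.9 normalized counts in any clone. Hist1h3c had 5.12, 5.37 and 2.0 in WT and 11.3, 5.10 and 2.78 in R98S cells. Hist1h3d had 1.02, 3.22 and 1.0 against 7.51, 1.02 and 13.9, and Hist1h3g 5.12, 3.22 and 3.00 against 6.57, 5.10 and 6.48. Hist1h3e had 3.07, 2.15 and 0 in the WT clones and 6.57, 3.06 and 3.70 in the R98S clones. All 4 overlapped between the groups, and whether they differ was not tested in the main fit.

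Among H4 genes, Hist1h4i (chr13:22040636-22041362, minus strand, 1 exon) was the only one to pass the filter, and it rose. It had 31.7, 27.9 and 29.0 normalized counts in WT and 60.05, 58.2 and 87.9 in R98S cells. The WT clones were close together and every R98S clone was higher. Its mean level rose from 29.6 ± 1.96 to 68.7 ± 16.6 (SD, n = 3), or by 1.17 on the log2 scale (SE 0.27, adjusted p = 0.0270). Hist1h4b had 4.10, 0 and 3.00 in the WT clones and 19.7, 2.04 and 15.7 in the R98S clones, and Hist1h4d 5.12, 1.07 and 2.0 against 13.1, 3.06 and 12.0. In both, R98S clones 11 and 35 were high and clone 13 lay within the WT range. Hist4h4, the single gene of the Hist4 cluster on chromosome 6, had 3.07, 3.22 and 7.01 against 9.38, 7.14 and 13.9, a narrow gap at low counts.

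Summed by class, the 5 classes had ratios of R98S to WT means between 1.65 and 2.90. H1 genes summed to 506, 499 and 595 normalized counts in WT cells and to 1569, 1457 and 1606 in R98S cells (ratio 2.90). H2B genes summed to 512, 374 and 456 against 1268, 655 and 925 (ratio 2.12), and H4 genes to 55.3, 41.9 and 53.0 against 127, 81.7 and 155 (ratio 2.42). H2A genes summed to 45.1, 60.2 and 18 against 94.8, 61.2 and 68.5 (ratio 1.82), with R98S clone 13 just above WT clone 29. H3 genes summed to 24.6, 25.8 and 9.01 against 41.3, 20.4 and 36.1 (ratio 1.65), and only in this class did the groups overlap. Hist1h1c held 93.3% to 96.5% of the H1 sum, Hist2h2be 55.8% to 81.6% of the H2B sum and Hist1h4i 47.4% to 71.2% of the H4 sum. Without WT clone 36, which had the lowest H2A and H3 sums, the log2 ratio fell from 0.865 to 0.508 for H2A and from 0.72 to 0.372 for H3. These sums are descriptions and carry no test.

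**Figure D3:**
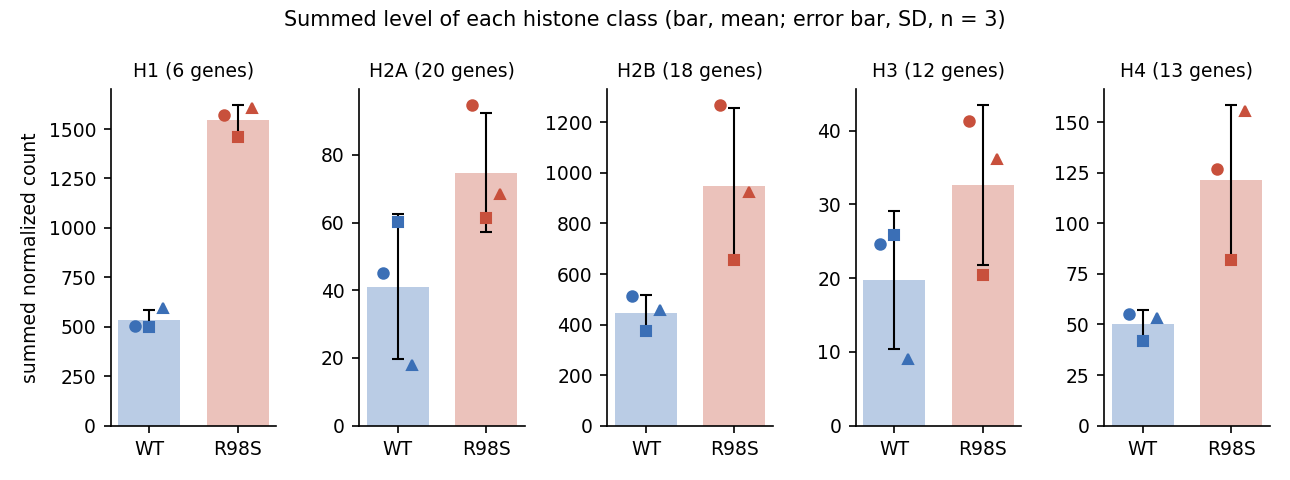
Summed normalized counts (y axes, each from 0 with its own scale) of the genes of each histone class in WT and R98S clones. Points are clones, bars are means and error bars are SD (n = 3), and the groups are separate for H1, H2A, H2B and H4 and overlap for H3. Within the R98S group clone 13 is the lowest for every class.

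R98S clone 13 stood apart from the other R98S clones for the weakly expressed histone genes but not for Hist1h1c. The 58 genes below the filter summed to 93.2, 82.7 and 58.04 normalized counts in the WT clones, to 233 and 179 in R98S clones 11 and 35, and to 82.7 in R98S clone 13. Of the 46 of these genes with any read, 35 were above their WT mean in R98S clone 11, 36 in clone 35 and 19 in clone 13. In 38 of the 46 the R98S mean was the higher and in 8 the lower. In 4 of the 46 every R98S clone lay above every WT clone, a smaller share than the 18.1% among all tested genes. Among them are genes at 1 to 3 reads, so no single gene can be read from these counts.

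RNA without a poly(A) tail, and mitochondrial mRNA, were compared in the same clones. Small nucleolar and other small noncoding RNA genes, 149 in the table with 65 at 0 throughout, summed to 814, 673 and 790 normalized counts in WT cells and to 1110, 907 and 1044 in R98S cells, a ratio of 1.34 without overlap. Of the 24 tested, 3 were called higher (Snord14a, Snora41 and Snord49a, with log2 fold changes of 1.07, 0.96 and 0.94), or 12.5%, beside 10.7% of all genes. The 13 listed mitochondrial mRNA genes, which carry short tails, summed to 329352, 372374 and 355372 in the WT clones and to 590911, 367801 and 497443 in the R98S clones, with R98S clone 13 inside the WT range. Of the 10 tested, 5 were called higher, with mt-Nd2, mt-Nd4, mt-Nd5 and mt-Atp8 furthest (log2 fold changes of 1.12, 1.01, 0.88 and 0.82), or 50%, beside 10.7% of all genes. R98S clones 11 and 35 were thus the highest for mitochondrial mRNA, for small RNA and for the weakly expressed histone genes alike. The part of RNA selection or quality in the histone values was not tested.

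**Figure D4:**
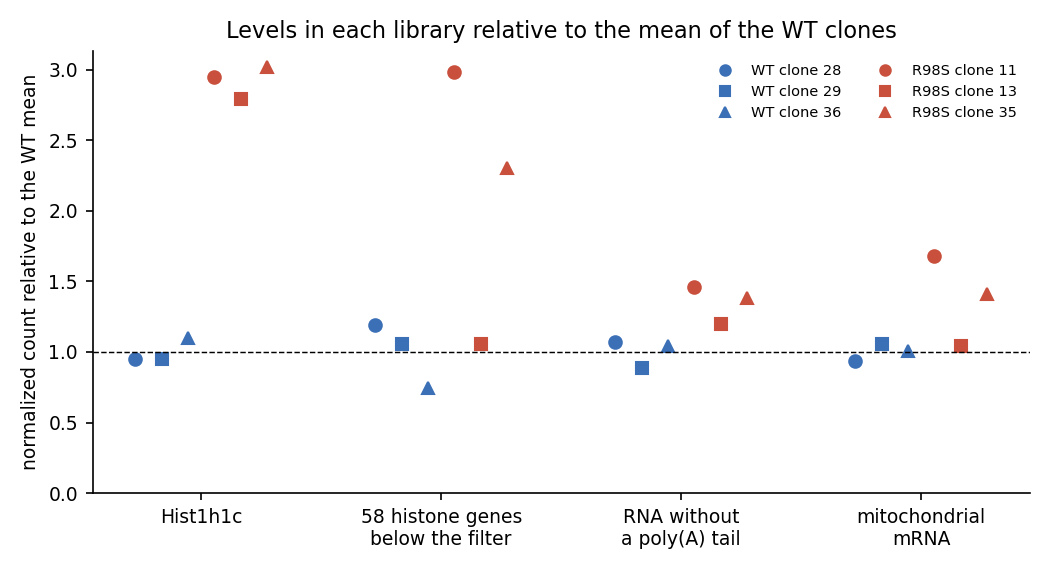
Normalized count of Hist1h1c, of the 58 histone genes below the filter, of RNA without a poly(A) tail and of mitochondrial mRNA in each clone, relative to the mean of the WT clones (y axis, linear, dashed line at 1). R98S clone 13 is at 2.79 for Hist1h1c, at 1.06 for the genes below the filter, at 1.20 for RNA without a tail and at 1.04 for mitochondrial mRNA.

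The gene models of the abundant histone genes extended further than those of most others. The 5 genes with the highest mean (Hist1h1c, Hist2h2be, Hist1h2bc, Hist1h2be and Hist1h4i) had between 376 and 2192 bases after the stop codon, against a median of 94 over all 69 genes. All 5 had at least 1 poly(A) signal (AATAAA or ATTAAA) past the stem-loop, or past the stop codon where no stem-loop was found. Such a signal was present in 22 of the 69 genes, of which 7 were tested and 6 called higher. It was absent in 47, of which 4 were tested and 1 (Hist1h1e) called. Of all tested genes 10.7% were called higher. Hist1h1b, Hist1h1e and Hist1h2bg without a signal, and Hist1h1d with one, passed the filter only through their R98S values. These call counts thus depend on the filter, and a link between signal and change was not tested. The genes with a signal had a median of 3.94 normalized counts and those without a median of 1.45. A longer model also collects more reads. Per kilobase of exon the medians were 2.85 and 2.73 normalized counts, and across the 67 genes with a coding model Spearman's rho between level per kilobase and bases after the stop codon was 0.0745, whereas it was 0.439 with the share of unique stretches. Both are descriptions across genes, which share libraries and sequence and are not independent.

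The head-to-head neighbours of Hist1h2bc and Hist2h2be were at or near 0. The annotation holds 14 such pairs with starts at most 1000 bases apart, 13 of them an H2A with an H2B gene. Hist1h2bc starts 251 bases from Hist1h2ac, and Hist2h2be 239 bases from Hist2h2ac, so the windows printed above serve both genes of each pair. Hist1h2ac had no read in 5 clones and 3.75 normalized counts in R98S clone 11, and Hist2h2ac had at most 3.06 in any clone. Per kilobase of exon, the R98S means were 135 for Hist1h2bc and 0.504 for Hist1h2ac, and 244 for Hist2h2be and 4.34 for Hist2h2ac, in normalized counts. These partners were chosen for their position after their values were seen. Of the transcript of Hist1h2ac 85.9% of 50-base stretches were unique to it, but only 45% of that of Hist2h2ac. Between the histone genes of the main cluster (chr13:21715763-23934851) lie 120 other listed genes. Of these 6 were tested, and limma, edgeR and DESeq2 each called 0, where limma called 23.9% of all genes. In each test 0 of the 6 had an unadjusted p under 0.05. With so few genes, 0 calls do not set them apart from all genes. The median log2 fold change of the 6 in limma was -0.351.

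Histone genes listed as replication-independent, many of which make polyadenylated mRNA outside S phase too, included far more abundant transcripts. Per kilobase of exon, H3f3b, which encodes the replacement histone H3.3, had 5464 normalized counts in WT and 5509 in R98S cells, and H1f0, the linker histone of resting cells, 7491 and 10175, against 323 and 944 for Hist1h1c. Of 11 listed genes 9 were tested, and only H2afx, the H2A form phosphorylated at DNA breaks, was called, with an increase from 1902 ± 218 to 2609 ± 196 normalized counts (log2 fold change 0.46, SE 0.12, adjusted p = 0.0398). H2afz had a log2 fold change of -0.033 (adjusted p = 0.896), H3f3a of 0.10 (0.698) and H3f3b of 0.017 (0.949). H1f0 had one of 0.42 and was not called (0.126). Their median log2 fold change was 0.0166, and 11.1% were called, beside 23.9% of all genes. The difference between clustered and replication-independent genes was not itself tested.

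**Figure D5:**
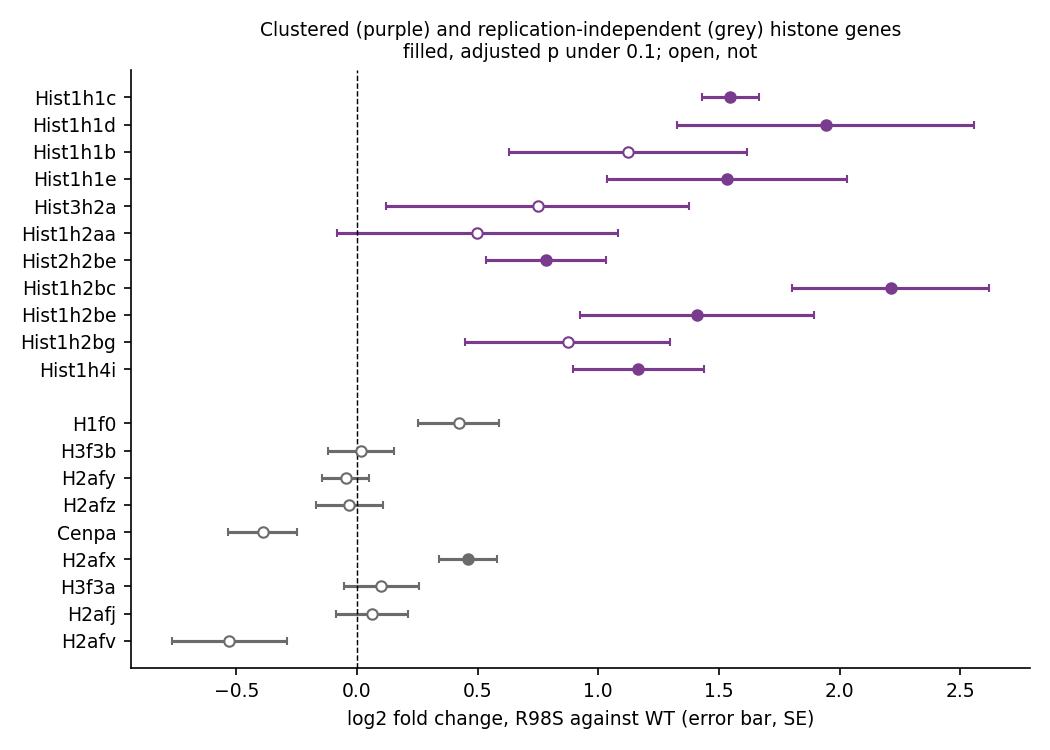
Log2 fold change of R98S against WT (x axis, limma, error bars are SE) of the 11 tested clustered histone genes in purple, ordered by class, and of the 9 tested replication-independent histone genes in grey, ordered by level. Filled points have an adjusted p under 0.1. The purple points lie between 0.50 and 2.21, and the grey points between -0.53 and 0.46.

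Genes for the 3′ end formation, turnover and transcription of histone mRNA moved in both directions. Slbp had 3407 ± 430 normalized counts in WT and 3240 ± 44.0 in R98S cells (log2 fold change -0.065, SE 0.11, adjusted p = 0.730). Npat, a coactivator of histone gene transcription, had a log2 fold change of -0.19 (adjusted p = 0.303). Casp8ap2, whose product FLASH binds the U7 particle, rose from 2299 ± 99.8 to 3372 ± 294 (log2 fold change 0.55, SE 0.11, adjusted p = 0.0147). Of 23 genes on this list, all tested, 4 rose and 3 fell, or 30.4% beside 23.9% of all genes, with a median log2 fold change of 0.0611. Ncbp1 of the nuclear cap-binding complex rose by 0.57 on the log2 scale (adjusted p = 0.0150), its partner Srrt by 0.34 (0.0739), and Snrpe, an Sm protein of small nuclear ribonucleoproteins, by 0.46 (0.0417). Zfp473, which is associated with the U7 particle, fell by 0.634 (adjusted p = 0.0997). Zcchc6, which adds uridines to histone mRNA during its decay, fell by 0.492 (adjusted p = 0.0217), and Upf1, a helicase that takes part in that decay, fell by 0.432 (adjusted p = 0.0707).

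Among histone chaperones, which carry histones to and from DNA, several transcripts rose. Of 25 genes, all tested, 8 rose and 2 fell (40% called, beside 23.9% of all genes), with a median log2 fold change of 0.103. Summed over the list, normalized counts were 161204, 163041 and 159667 in WT and 191623, 189909 and 176997 in R98S cells, a ratio of 1.15 without overlap. Npm1, named after its values were seen, made up a large part of these sums (58094 ± 5015 and 71565 ± 8626, adjusted p = 0.197, not called), and without it the ratio was 1.11. The genes furthest up were Supt6, which travels with elongating polymerase (log2 fold change 0.76, adjusted p = 0.00976), Ipo4, which imports histones into the nucleus (0.68, adjusted p = 0.0169), Nap1l4 (0.63, adjusted p = 0.0464) and Nasp, which holds soluble H3 and H4 (0.61, adjusted p = 0.00938). Spty2d1 fell by 0.441 on the log2 scale (adjusted p = 0.0459), and Anp32e, a chaperone of the variant encoded by H2afz, fell by 0.398 (adjusted p = 0.0712).

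Histone mRNA is normally made together with S phase genes. Of 31 of these, all tested, 6 rose and 2 fell (25.8% called, beside 23.9% of all genes). The log2 fold change was positive in 25 of the 31, beside 5667 of all 11550 tested genes, and the median of the 31 was 0.203. Ccne2 (0.76, adjusted p = 0.0968), Rfc2 (0.68, adjusted p = 0.0469), Ccna2 (0.62, adjusted p = 0.0440) and Gins1 (0.56, adjusted p = 0.0651) were furthest up, encoding cyclins E and A, a clamp loader subunit and a part of the replicative helicase. E2f2 fell by 1.22 on the log2 scale (adjusted p = 0.0148) and Gins3 fell by 0.661 (adjusted p = 0.0283). The sums over the list overlapped between the groups, at 95837 to 126935 in WT and 114558 to 125350 in R98S clones.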

How the data were processed

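Polyadenylated RNA of 6 Ba/F3 clones (3 RPL10 WT, 3 RPL10 R98S) was sequenced as stranded libraries. The authors removed ribosomal and transfer RNA reads with Bowtie2, aligned the rest to mm10 with TopHat, kept primary alignments of mapping quality 10 or more and counted reads on exons. SAMtools and HTSeq are named in the submitters' processing notes. The annotation release and the use of strand in counting are not given in the sources used here. What they deposited is a signal for each gene, the read count divided by the DESeq2 size factor of the library. Every value was a whole multiple of 1 step per library (100% of values, tolerance 0.01), so reads could be recovered, and a count of up to 3 reads was taken as not distinguishable from 0.

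The groups were compared with limma (version 3.58.1, R 4.3.3, empirical Bayes with an intensity trend, two-sided) on log2(normalized count + 1) for genes with a mean of at least 10, with Benjamini-Hochberg adjustment over all genes tested and a threshold of 0.1, the study's false discovery rate. The pseudocount shrinks changes of low genes, but on this scale some were still larger than in the count tests. The log2 fold change of Hist1h1d was 1.94 in limma, 1.71 in edgeR and 1.73 in DESeq2. That of Hist1h1b went the other way, at 1.12, 1.31 and 1.31. The steps were tested on simulated data. Alternatives were pseudocounts of 0.5 and 5, no filter or a mean of at least 50, libraries scaled to equal totals or upper quartiles, no trend, a threshold of 0.05, leaving out each clone, and edgeR (4.0.16, quasi-likelihood) and DESeq2 (1.42.0, Wald) on the recovered reads. Gene models came from GENCODE M21 and promoters from RefSeq, and levels per kilobase used the summed exon length. All 69 symbols matched GENCODE, where Hist1h2aj and Hist1h2al are pseudogenes and the latter lies outside the cluster.

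Values per clone are given for the 4 most abundant genes of each class, every gene called, and the top gene of Hist3 and Hist4. From each list, called genes are named, at most the 4 with the largest change per direction. Slbp, Npat, Casp8ap2, H2afz, H2afx, H3f3a and H3f3b are named in any case. The histone genes, the lists and the tests were chosen with earlier results of these data known. Of the lists, 3 symbols did not occur in the table, and 1 marker gene is not reported here.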

Additional observations from a re-analysis of the deposited data

How the results depend on the processing

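No paired analysis was possible because no clone number occurs in both groups. The number of genes called was 1722 at an adjusted p under 0.05 and lay between 1327 (WT clone 28 left out) and 3219 (R98S clone 13 left out) when 1 clone was removed. The number of histone genes called higher was 3 at an adjusted p under 0.05 and 4 with a minimum mean of 50, where only 4 were tested. Over the fits without 1 clone it lay between 3 (WT clone 28, WT clone 29 or R98S clone 11 left out) and 6 (R98S clone 13 left out). Without a filter, 2265 of the 25345 genes with a read were called in either direction. In that fit the number of histone genes called higher was 5 of 57 tested. It stayed at 7 under both pseudocounts, both scalings and edgeR, and was 6 with DESeq2 and without the trend. No alternative called a histone gene lower. Without the most abundant gene of the class, the log2 ratio of the summed level was 1.3 for H1 (1.53 with it) and 1.79 for H2B (1.09 with it). All other class ratios moved by less than 1 SD between clones, although leaving out WT clone 36 lowered that of H3 from 0.72 to 0.372 and that of H2A from 0.865 to 0.508. Hist1h1c, Hist1h2bc and Hist1h4i kept their calls under all alternatives in which they were tested, with adjusted p values up to 0.00328, 0.0494 and 0.0866. Of 164 comparisons of single genes 136 kept direction and call, 25 lost the call, 2 gained it and 1 reversed, namely Hist1h2aa without WT clone 36 (-0.0998, up to 1.05 over the other fits without 1 clone). Apart from fewer genes or clones in a fit, and the stricter threshold, the cause was not tested. Only 11 of 69 genes had enough reads to pass the filter, and whether deeper sequencing would raise that number was not tested.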

Other observations

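Genes of growth arrest and differentiation, the setting in which polyadenylated histone mRNA has been described, were called in both directions. Of 20 listed genes 17 were tested, 6 fell and 1 rose, with a median log2 fold change of -0.365 and 41.2% called, beside 23.9% of all genes. Btg1, an antiproliferative factor, fell from 1201 ± 171 to 402 ± 106 normalized counts (SD, n = 3, log2 fold change -1.60, limma adjusted p = 0.00326). Txnip, Cdkn2d and Klf6 fell by 1.44, 1.09 and 1.0 on the log2 scale (limma adjusted p = 0.0196, 0.0117 and 0.0115). Ccng1, a target of p53, rose by 1.35 on the log2 scale, from 6949 ± 2573 to 17224 ± 3213 (limma adjusted p = 0.0130).

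Few genes of general cleavage and polyadenylation were called. Of 20 tested, 1 rose (Pabpn1, log2 fold change 0.45, limma adjusted p = 0.0827) and 1 fell (Nudt21, log2 fold change -0.46, limma adjusted p = 0.0174), or 10% beside 23.9% of all genes, with a median log2 fold change of 0.0114. Nudt21 encodes a subunit of cleavage factor I, which takes part in the choice between poly(A) sites.

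Of 3 tested early B lineage markers, Ptprc, which encodes the phosphatase CD45, fell from 11217 ± 2636 to 4471 ± 1148 normalized counts (log2 fold change -1.33, limma adjusted p = 0.00894) and Cd79b rose from 258 ± 128 to 572 ± 166 (1.22, limma adjusted p = 0.0617). Of the interleukin-3 receptor genes, Csf2rb and Csf2rb2 rose by 0.53 and 0.62 on the log2 scale (limma adjusted p = 0.0509 and 0.0178), and of the T lineage markers Cd3d and Lck by 2.17 and 1.17 (limma adjusted p = 0.0112 and 0.0355). The globin gene Hba-a1 fell, from 8.6 to 69.1 normalized counts in WT clones to at most 6.12 in R98S clones (limma adjusted p = 0.0389). It passed the expression filter only through its WT values, which differed widely between clones. The summed level of 3 genes of the interleukin-3 receptor was 87943 to 103977 normalized counts in WT and 130712 to 154304 in R98S clones. The 6 T lineage genes summed to 52.2 to 106 and 152 to 179, the 8 mast cell and myeloid genes to 186 to 237 and 80.6 to 485, the 6 erythroid genes to 202 to 685 and 367 to 581, and the 4 fibroblast genes to 12.3 to 24.7 and 10.2 to 21.4.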
